A study of Homo sapiens with 12 samples.

Results

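The genes described here are 9 genes of deoxynucleotide (dNTP) supply: RRM1 and RRM2, the subunits of ribonucleotide reductase, TYMS, TK1, DTYMK and DUT of thymidylate supply, DCK of deoxycytidine salvage, and CTPS1 and CAD of pyrimidine nucleotide synthesis. They were chosen by symbol, and 14 of the 19064 probe sets that the platform table maps to exactly 1 symbol belong to them, so they are 9 of the 11963 genes tested. Expression was measured on 12 Affymetrix human expression arrays in RCC4, an established cell line from a human clear cell renal carcinoma. Each group had 3 biological replicates, collected 72 h after transfection with 40 pmol of siRNA: the AllStars negative control (siNT), MESH1 siRNA with 1 target sequence (siMESH1), pooled siRNAs to ATF4 (siATF4), or the MESH1 and ATF4 reagents given at once (siMESH1+siATF4). Each silencing therefore rests on 1 reagent, and how the 40 pmol was divided when both were given is not stated in the sources used here. MESH1, the product of HDDC3, removes a phosphate from NADPH in the cytosol, and ATF4 is the transcription factor of the integrated stress response. The series asks how much of the response to MESH1 silencing goes through ATF4.

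Ribonucleotide reductase converts ribonucleotides to the deoxyribonucleotides that DNA synthesis uses. Its large subunit, RRM1, is stable, whereas the small subunit, RRM2, accumulates in S phase and is degraded afterwards. Thymidylate synthase, thymidine kinase and most enzymes of this supply line are transcribed mainly around S phase, under E2F factors and, for many of them, CCAAT-binding and cell cycle homology region (CHR) factors, so their mRNA in a culture varies with the share of cells in S phase as well as with the amount per cell. In these bulk samples fewer S phase cells and less RNA per cell cannot be told apart.

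The promoters were read in RefSeq windows (GRCh38.p14) of 300 bases, from 250 bases before to 50 after each annotated start, and all 9 genes had one. Stretches of 30 bases around the motif letters are shown, because the falls described below concern these genes; capitals mark motif letters, and every sequence runs 5′ to 3′ in the direction of the gene. RRM2, whose mRNA changed most, held CCAAT 3 times within 123 bases of a start, each time followed by the letters ggg:

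RRM2, chr2:10122604-10122633, plus strand: ggcaaggcgcagCCAATgggaagggtcgga
RRM2, chr2:10122634-10122663, plus strand: ggcatggcacagCCAATgggaagggccggg
RRM2, chr2:10122661-10122690, plus strand: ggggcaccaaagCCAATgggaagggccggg

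TK1 held the same box on the opposite strand (ATTGG), and DTYMK held it next to a CHR:

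TK1, chr17:78187112-78187141, minus strand: ggccgggcgctgATTGGccccatggcggcg
TK1, chr17:78187081-78187110, minus strand: ggccggctcgtgATTGGccagcacgccgtg
DTYMK, chr2:241686890-241686919, minus strand: ccccggccccggCCAATcccTTCGAAtttg

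TYMS, DUT and DCK held E2F letters:

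TYMS, chr18:657603-657632, plus strand: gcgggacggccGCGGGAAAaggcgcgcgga
DUT, chr15:48332144-48332173, plus strand: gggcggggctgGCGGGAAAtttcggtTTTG
DCK, chr4:70993659-70993688, plus strand: gctgcctccgcGCGCCAAAgtcaaaccccg

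The E2F letters searched were TTTGGCGC, TTTCCCGC, TTTGCCGC and TTTCGCGC on both strands, and 3 of the 9 genes held one (TYMS, DUT and DCK) against 6.1% of the 9563 array genes with a window and 3.3% of all 35116 windows. CCAAT, searched on both strands, was in 5 of 9 (RRM1, RRM2, TK1, DTYMK and CAD) against 44.2% and 34.6%. CHR letters (TTTGAA or TTCGAA, on both strands) were in 3 of 9 (RRM1, DTYMK and DUT) against 17.2% and 16.4%. CTPS1 held none of the 3 motifs. None of the motifs overlapped another in the stretches shown, and a match is a description of letters and not a measured binding site.

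The deposited values are log2 signals relative to the siNT mean of the same probe set, so they are differences and not levels, and no level could be set against another gene's or against background. A gene was called changed at a Benjamini-Hochberg adjusted p of limma under 0.05 together with a log2 change of at least 0.5, which is called the fold minimum here. The silencing of ATF4 was visible: its value was -2.31 ± 0.02 in siATF4 and -2.32 ± 0.12 in siMESH1+siATF4, against -0.03 ± 0.07 in siMESH1 (log2, mean ± SD, n = 3). HDDC3 was not analysed here, so the silencing of MESH1 was not checked on these arrays. Of the renal carcinoma markers, 6 were measured, and 3 of them (CA12 at -1.61, VEGFA at -0.65 and KRT18 at -0.54) fell in siMESH1. In siMESH1+siATF4 CA12 was also lower (-0.76) and KRT18 was higher (0.63), and none of the 6 was called in siATF4. The 4 markers measured of leukocytes and endothelium lay between -0.09 and 0.22 against siNT and were not called, and presence of a marker cannot be read from differences.

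The mRNA of most of the supply line was lower in every silenced group. Against siNT, 7 of the 9 genes fell in siMESH1 (5.37% of all genes were called lower there), 7 of 9 with siATF4 alone (4.03%), and 8 of 9 in siMESH1+siATF4 (5.25%). In the same order the median change of the 9 genes was -0.90, -0.91 and -0.92, against 0.03, 0.02 and 0.01 over all genes. These comparisons share the siNT arrays. CAD was called in none of them, DUT not in siMESH1 and CTPS1 not in siATF4.

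**Figure D1:**
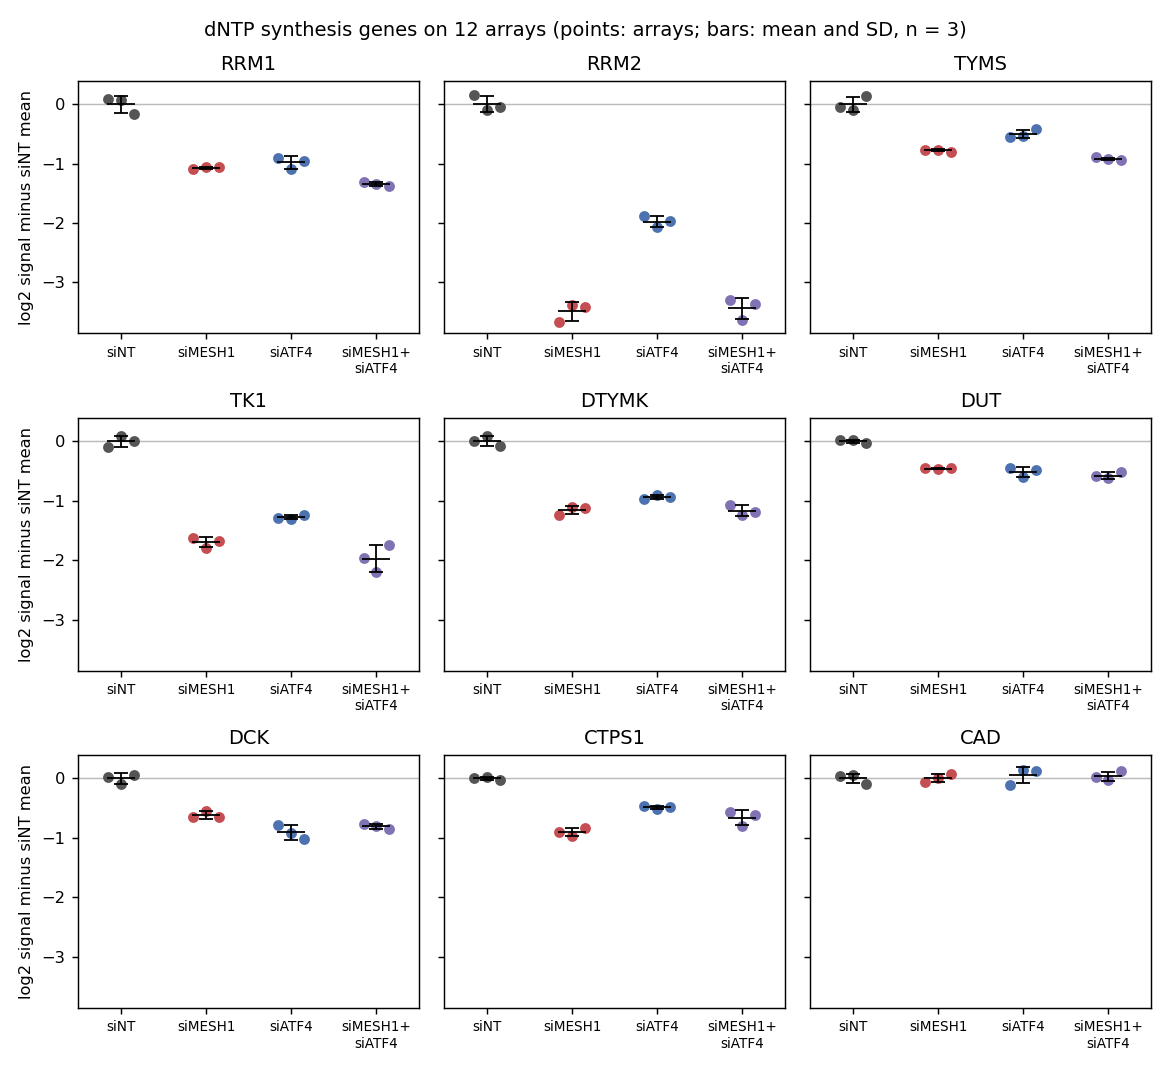
Values of the 9 genes on the 12 arrays: the y axis is the log2 signal minus the siNT mean, the x axis the siRNA group, points are arrays, and bars are the mean and SD (n = 3). RRM2 lies near -3.4 in both groups that received siMESH1 and near -2 in siATF4, and CAD stays around 0 in every group.

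RRM2, the regulatory subunit that carries the tyrosyl radical of the enzyme, fell furthest. Its siNT arrays were at 0.15, -0.10 and -0.05, its siMESH1 arrays at -3.66, -3.38 and -3.41, its siATF4 arrays at -1.88, -2.07 and -1.97, and its siMESH1+siATF4 arrays at -3.30, -3.63 and -3.36. The silenced arrays all lay below the siNT arrays, the siATF4 arrays lay between, and the groups that received siMESH1 overlapped each other. The log2 change was -3.48 in siMESH1 (SE 0.10, adjusted p = 2.6e-10), an 11.2-fold fall and the lowest value among all 11963 genes. In siATF4 it was -1.98 (SE 0.10, adjusted p = 2.5e-08), a 3.93-fold fall. In siMESH1+siATF4 it was -3.43 (SE 0.10, adjusted p = 1.6e-10), a 10.8-fold fall and again the lowest of all genes.

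RRM1, the catalytic subunit, fell less. Its siNT arrays were at 0.10, 0.07 and -0.16, and its siMESH1 arrays at -1.09, -1.06 and -1.06. Its siATF4 arrays were at -0.90, -1.10 and -0.95, and its siMESH1+siATF4 arrays at -1.30, -1.34 and -1.38. The siMESH1 and siATF4 arrays overlapped, and the siMESH1+siATF4 arrays lay below all others. The changes against siNT were -1.07, -0.98 and -1.34 (SE 0.07, adjusted p = 1.4e-07, 4.6e-07 and 1.4e-08). RRM2B, the p53-inducible small subunit, was not analysed here.

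The subunits thus fell by unequal amounts on the same arrays. In the log2 ratio RRM2 minus RRM1 a shift shared by all genes of an array cancels. The ratio was not recomputed after quantile normalization, which is not such a shift. The ratio averaged -2.41 ± 0.14 in siMESH1, -2.09 ± 0.18 in siMESH1+siATF4 and -0.99 ± 0.03 in siATF4, with the siNT mean at 0 ± 0.15 (SD, n = 3). Each of these groups was separated from siNT without overlap, and the two-sided p of an exact permutation test was 0.1, the lowest this number of arrays allows, or 0.133 after adjustment over the 12 ratio tests. Between siMESH1+siATF4 and siMESH1 the ratio differed by 0.32 (exact permutation p = 0.1), and by 0.51 without the probe sets ending in _x_at or _s_at where a gene has another.

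**Figure D2:**
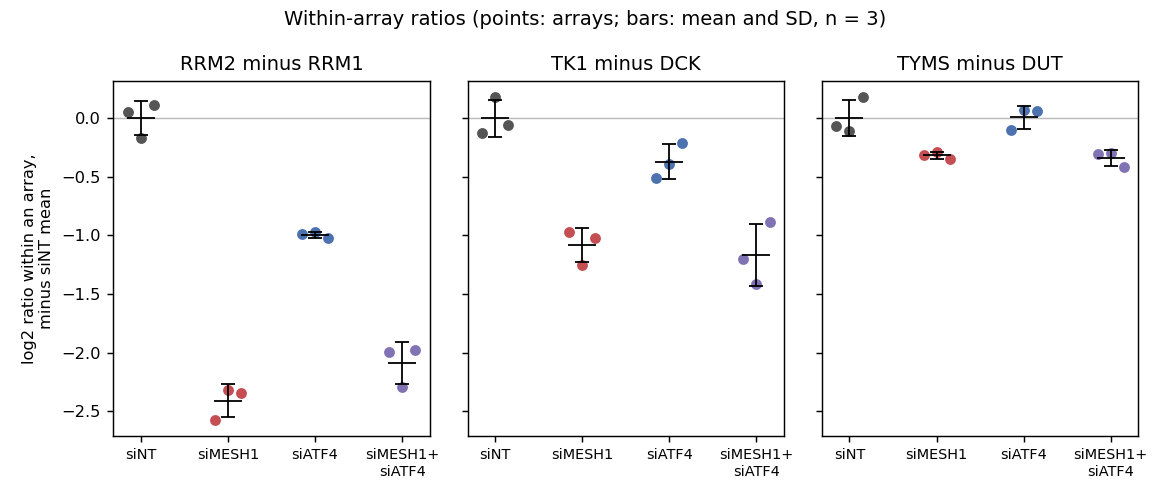
Within-array log2 ratios minus their siNT mean (y axis) by siRNA group (x axis); points are arrays, bars the mean and SD (n = 3). RRM2 minus RRM1 and TK1 minus DCK fall in all 3 silenced groups, and TYMS minus DUT, with TYMS as the mean of its probe sets, is lower in the groups that received siMESH1.

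Of the 4 genes of thymidylate supply, TK1, DTYMK and TYMS fell in all 3 silenced groups and DUT in 2, and the calls of TYMS rest on 1 of its 2 probe sets. TK1, the cytosolic thymidine kinase of the salvage route, was at -0.09, 0.08 and 0.01 in siNT and at -1.62, -1.79 and -1.67 in siMESH1. It was at -1.29, -1.31 and -1.24 in siATF4 and at -1.97, -2.20 and -1.75 in siMESH1+siATF4. No array of one silenced group overlapped siNT, and siATF4 was the least lowered of the silenced groups. The changes were -1.70, -1.28 and -1.97 (SE 0.09, adjusted p = 2.8e-08, 5.4e-07 and 5.6e-09), folds of 3.24, 2.43 and 3.93.

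DTYMK, the thymidylate kinase that acts on the product of both TYMS and TK1, was at 0.00, 0.09 and -0.09 in siNT and at -1.24, -1.11 and -1.12 in siMESH1. It was at -0.97, -0.90 and -0.93 in siATF4 and at -1.07, -1.24 and -1.19 in siMESH1+siATF4, so the groups that received siMESH1 overlapped and the siATF4 arrays lay above them. Its changes were -1.16, -0.93 and -1.17 (SE 0.06, adjusted p = 2.2e-08, 2.6e-07 and 1.6e-08).

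TYMS, which makes thymidylate from dUMP, gave 2 different readings. Averaged over its probe sets it changed by -0.78, -0.50 and -0.92 in siMESH1, siATF4 and siMESH1+siATF4 (SE 0.06, adjusted p = 9.2e-07, 5.6e-05 and 1.5e-07). Probe set 202589_at was at 0.02, -0.07 and 0.04 in siNT, and at -1.36, -1.39 and -1.30 in siMESH1. It was at -0.96, -1.11 and -1.05 in siATF4 and at -1.58, -1.65 and -1.66 in siMESH1+siATF4. Probe set 217684_at was at -0.12, -0.13 and 0.25 in siNT, at -0.17, -0.14 and -0.30 in siMESH1, at -0.14, 0.03 and 0.20 in siATF4 and at -0.22, -0.19 and -0.21 in siMESH1+siATF4. The first separated every silenced group from siNT, with changes of -1.35, -1.04 and -1.63, and the second changed by -0.20, 0.03 and -0.21 and was not called in any comparison. The call of TYMS in siATF4 lay at the fold minimum and was lost without siNT replicate 3 (-0.43), without siATF4 replicate 1 (-0.48) or without siATF4 replicate 2 (-0.49). ENOSF1, the gene that overlaps TYMS, was not analysed here.

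DUT, the dUTPase that supplies dUMP and keeps uracil out of DNA, was lowered by amounts near the fold minimum. Its arrays were at 0.02, 0.02 and -0.03 in siNT, at -0.46, -0.47 and -0.45 in siMESH1, at -0.45, -0.61 and -0.48 in siATF4 and at -0.59, -0.62 and -0.51 in siMESH1+siATF4. All silenced arrays lay below siNT. The changes were -0.46, -0.51 and -0.58 (SE 0.05, adjusted p = 2.2e-05, 1.1e-05 and 2.4e-06), and the first did not reach the fold minimum. Probe set 208955_at gave -0.62, -0.51 and -0.60, 208956_x_at gave -0.48, -0.61 and -0.66, and 209932_s_at, which was not called, gave -0.27, -0.42 and -0.47. Without siATF4 replicate 2 the change in siATF4 was -0.46, below the fold minimum.

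**Figure D3:**
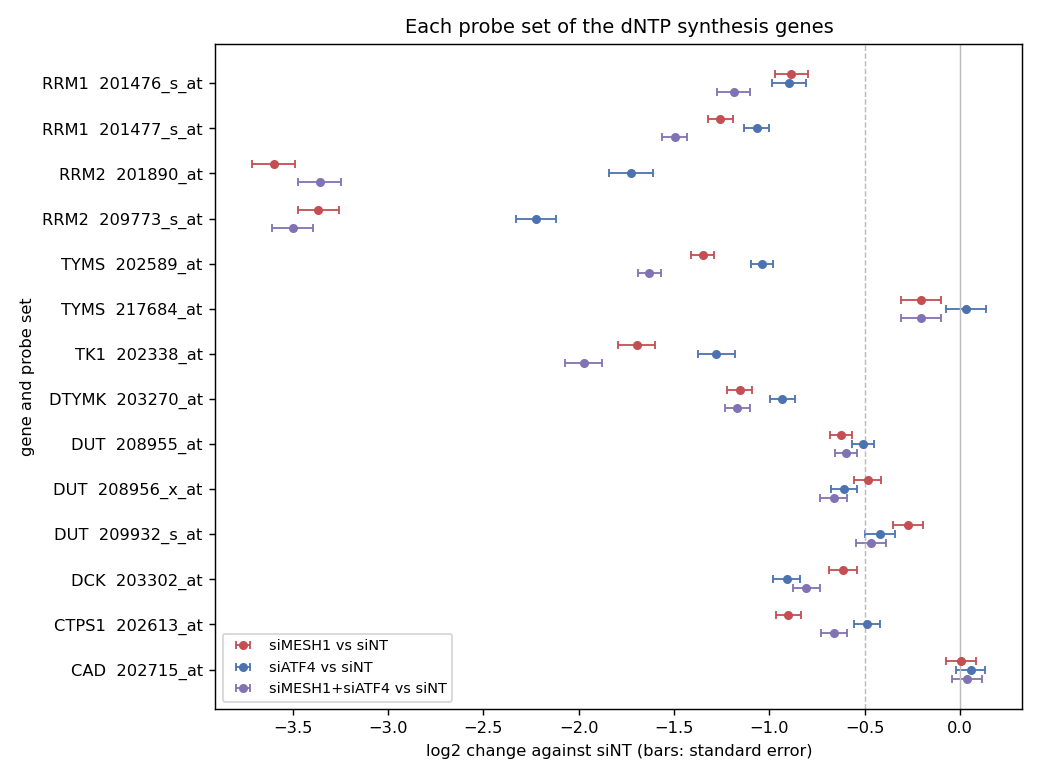
Log2 change against siNT (x axis) of each of the 14 probe sets (y axis), with standard errors; the dashed line marks -0.5. The probe sets of RRM2 lie at -1.73 and -2.23 in siATF4, 217684_at of TYMS lies near 0 while 202589_at lies between -1.63 and -1.04, and the CAD probe set lies at 0.

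DCK, which phosphorylates deoxycytidine and several nucleoside drugs, had another order of groups. It was at 0.03, -0.10 and 0.06 in siNT and at -0.65, -0.54 and -0.65 in siMESH1. It was at -0.78, -0.92 and -1.03 in siATF4 and at -0.77, -0.79 and -0.86 in siMESH1+siATF4, so the siMESH1 arrays were the least lowered and the siATF4 and siMESH1+siATF4 arrays overlapped. The changes were -0.61, -0.91 and -0.81 (SE 0.07, adjusted p = 1.6e-05, 6e-07 and 1.1e-06). Of the 9 genes, DCK was 0.30 higher in siMESH1 than in siATF4 (SE 0.07, adjusted p = 0.0047), below the fold minimum. The salvage kinases TK1 and DCK differed within arrays: TK1 minus DCK averaged -1.08 ± 0.15 in siMESH1, -1.17 ± 0.26 in siMESH1+siATF4 and -0.37 ± 0.15 in siATF4 (SD, n = 3, siNT 0 ± 0.16, exact permutation p = 0.1 for each, 0.133 adjusted). TYMS minus DUT averaged -0.32 ± 0.03, -0.34 ± 0.07 and 0.01 ± 0.10 in the same order (siNT 0 ± 0.16, exact permutation p = 0.1, 0.1 and 0.9), with TYMS as the mean of its disagreeing probe sets. With 202589_at alone for TYMS, an alternative chosen after the values were seen, it averaged -0.89 ± 0.04, -1.05 ± 0.08 and -0.53 ± 0.03. With the mean of the TYMS probe sets but without the DUT probe sets ending in _x_at or _s_at, the value in siMESH1 was -0.15 in place of -0.32.

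CTPS1, which makes CTP from UTP, fell most under siMESH1 alone. Its arrays were at 0.01, 0.03 and -0.03 in siNT, at -0.90, -0.97 and -0.83 in siMESH1, at -0.47, -0.52 and -0.48 in siATF4 and at -0.56, -0.81 and -0.62 in siMESH1+siATF4. The silenced groups did not overlap. The changes were -0.90 (SE 0.06, adjusted p = 2.6e-07), -0.49 (adjusted p = 8.2e-05, below the fold minimum) and -0.66 (adjusted p = 3.7e-06). Without siNT replicate 3 the change in siATF4 was -0.50 and passed.

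CAD, the multifunctional protein of the first steps of pyrimidine synthesis, was the exception. Its arrays were at 0.04, 0.05 and -0.09 in siNT, at -0.06, 0.01 and 0.08 in siMESH1, at -0.11, 0.15 and 0.13 in siATF4 and at 0.02, -0.03 and 0.12 in siMESH1+siATF4, and the groups overlapped. The 95% intervals of its change against siNT were -0.16 to 0.17 in siMESH1, -0.11 to 0.22 in siATF4 and -0.12 to 0.20 in siMESH1+siATF4, each within the fold minimum.

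Adding siATF4 to siMESH1 changed none of the 9 genes past the threshold. Over all genes 6.1% were called in one direction or the other in that comparison, so 0 of 9 is near the share of all genes. By limma 6 of the 9 had an unadjusted p under 0.05, and the methods' t-test with Benjamini-Hochberg adjustment also called 0. Without the fold minimum RRM1 (-0.27, adjusted p = 0.012), TK1 (-0.28, adjusted p = 0.046) and CTPS1 (0.24, adjusted p = 0.013) would have been called. For RRM2 the difference was 0.05 with a 95% interval from -0.17 to 0.28, and its probe sets disagreed in sign (0.24 and -0.13, neither called). How near RRM2 came to the lower limit of the array in these groups cannot be read from a table of differences.

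Adding siMESH1 to siATF4 went with lower RRM2 (-1.45, SE 0.10, adjusted p = 3.6e-06) and lower TK1 (-0.69, SE 0.09, adjusted p = 5e-04), 2 of 9 genes against 1.28% of all genes called lower. By the methods' t-test with Benjamini-Hochberg adjustment TK1 was not called there, and after quantile normalization neither was (RRM2 at -0.58, adjusted p = 0.056, and TK1 at -0.13, adjusted p = 0.84). TYMS (-0.41, adjusted p = 0.0011), RRM1 (-0.36, adjusted p = 0.0056) and DTYMK (-0.24, adjusted p = 0.029) stayed below the fold minimum. CTPS1, DUT, DCK and CAD were between -0.17 and 0.10 with adjusted p of 0.11 to 0.93. Set directly against siATF4, siMESH1 had lower RRM2 (-1.51, SE 0.10, adjusted p = 2e-07), the single call among the 9 genes, where 4.75% of all genes were called lower.

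The changes of the single silencings did not add up in the double silencing. The interaction, which is the effect of siMESH1 in the presence of siATF4 minus its effect without, was positive past the threshold for 6 of the 9 genes, against 3.46% of all genes. The effect of siMESH1 on RRM2 went from -3.48 without to -1.45 with siATF4, an interaction of 2.03 (SE 0.15, adjusted p = 5.1e-06), the value at place 2 from the highest among the 11963 genes. It was 1.00 for TK1 (SE 0.13, adjusted p = 0.00033), 0.92 for DTYMK (SE 0.09, adjusted p = 3e-05) and 0.71 for RRM1 (SE 0.10, adjusted p = 0.00048). It was 0.73 for CTPS1 (SE 0.09, adjusted p = 0.00019) and 0.72 for DCK (SE 0.10, adjusted p = 0.00034). TYMS (0.36, adjusted p = 0.02) and DUT (0.40, adjusted p = 0.0043) stayed below the fold minimum. By single probe sets, 202589_at of TYMS gave 0.76 and 208955_at of DUT gave 0.53, and both were called. The other probe sets of TYMS and DUT were not called. CAD was at -0.02 (95% interval -0.25 to 0.21). After quantile normalization the interaction of RRM1 (0.72, adjusted p of limma = 0.084) was not called. With centring on the housekeeping genes, which turned the split of all interaction calls from 414 higher and 102 lower to 189 and 1406 and moved the median of all genes from -0.02 to -0.29, 3 of the 6 remained called higher (RRM2, TK1 and DTYMK), and RRM1 at 0.44, DCK at 0.45 and CTPS1 at 0.46 did not.

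**Figure D4:**
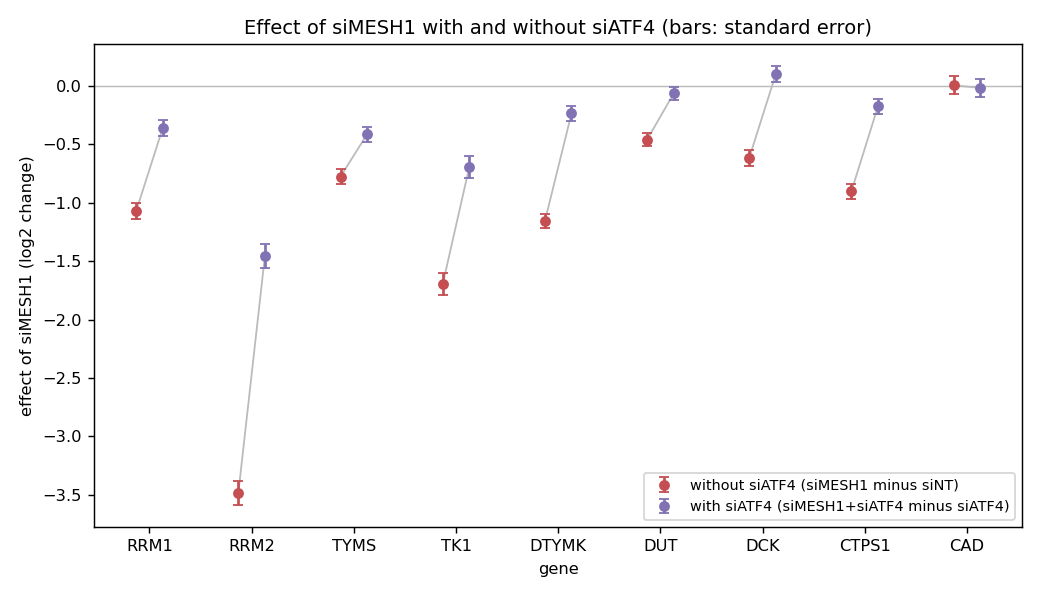
Effect of siMESH1 (log2 change, y axis) on each gene (x axis) without siATF4 (siMESH1 minus siNT) and with it (siMESH1+siATF4 minus siATF4); bars are standard errors. For 8 of the 9 genes the effect with siATF4 lies above that without, and CAD lies at 0 in both.

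The falls ran alongside those of S phase genes. Of 19 replication and S phase genes measured (PCNA, MCM2 to MCM7, CDC6, CDC45 and others), 19 fell in each silenced group, with medians of -1.41 (siMESH1), -1.07 (siATF4) and -1.50 (siMESH1+siATF4), and all 19 had a positive interaction past the threshold (median 1.06). The part of a lower S phase share in the falls of the supply genes was not tested. Set against the mean of these 19 genes on the same array, RRM2 stood at -2.05 ± 0.17 in siMESH1, -1.88 ± 0.14 in siMESH1+siATF4 and -0.83 ± 0.07 in siATF4 (log2 difference, mean ± SD, n = 3, siNT 0 ± 0.12). TK1 stood at -0.27 ± 0.09, -0.42 ± 0.21 and -0.13 ± 0.02 in the same order (siNT 0 ± 0.13). The other 7 genes, each by the mean of its probe sets, lay above that mean. RRM1 was 0.36, 0.21 and 0.17 above it, and DTYMK 0.27, 0.39 and 0.21. The distance was 0.53, 0.89 and 0.66 for CTPS1 and 0.65, 0.64 and 0.64 for TYMS. By its probe set 202589_at alone, chosen after the values were seen, TYMS stood at 0.08 ± 0.07, -0.07 ± 0.02 and 0.11 ± 0.06, so whether it lay above that mean depends on the probe set. The distance was 0.81, 0.75 and 0.24 for DCK and 0.97, 0.98 and 0.63 for DUT. CAD, which did not fall, lay 1.43, 1.59 and 1.20 above it.

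The genes whose 3 silenced group means were nearest to those of a supply gene, by root mean square difference over these 3 means, were BIRC5 (0.03), NCAPH (0.03) and AURKB (0.06) for TK1 and MCM7 (0.08), DSN1 (0.09) and RNASEH2A (0.09) for RRM1. For TYMS they were ZCCHC10 (0.03), STC1 (0.04) and PSMA5 (0.05), set against the mean of TYMS probe sets that disagree, so against the profile of neither. For RRM2 no gene was as near: SHCBP1 (0.38), CENPU (0.60) and PBK (0.60), with SHCBP1 at -2.88, -2.01 and -3.18. The distance counts the size of the changes, and RRM2 was the lowest of all genes in siMESH1 and siMESH1+siATF4. The lack of a near gene therefore follows in part from the size of its falls.

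Of 74 other genes of nucleotide metabolism that were listed, 56 were measured, and the others were not analysed here. In siMESH1 2 rose and 7 fell, in siATF4 2 rose and 4 fell, and in siMESH1+siATF4 3 rose and 4 fell; over all genes 2.82%, 2.49% and 4.4% were called higher in these comparisons, beside the shares called lower given above. The medians of the 56 were -0.12, -0.07 and -0.09. The 8 other pyrimidine genes and the 5 measured genes of the folate cycle gave 0 calls against siNT in any group by limma or by the methods' t-test with Benjamini-Hochberg adjustment. Their unadjusted p of limma was under 0.05 for 3, 0 and 4 of the pyrimidine genes and for 3, 2 and 4 of the folate genes. Of the 14 nucleotide kinases and transporters, AK5, an adenylate kinase, rose in siMESH1 by 0.59 (adjusted p = 8.5e-05), the single call.

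Of 17 purine genes, 1 rose and 4 fell in siMESH1, 1 rose and 2 fell in siMESH1+siATF4, and 2 fell with siATF4 alone. PNP, which splits purine nucleosides, fell in all 3 groups, with changes of -0.79, -0.72 and -1.09 (SE 0.06, adjusted p = 4.8e-07, 1.7e-06 and 2e-08). In siMESH1 there were also falls of PRPS1, a PRPP synthetase (-0.81, adjusted p = 7e-07), HPRT1, the salvage enzyme of hypoxanthine and guanine (-0.66, adjusted p = 4.3e-07), and DGUOK, the mitochondrial deoxyguanosine kinase (-0.52, adjusted p = 3.9e-05). ADA, adenosine deaminase, rose by 0.50 in siMESH1 (adjusted p = 3e-05) and 0.84 in siMESH1+siATF4 (adjusted p = 2.3e-07). GMPS, the GMP synthase, fell in siATF4 (-0.52, adjusted p = 9.8e-05), and PRPS2, another PRPP synthetase, in siMESH1+siATF4 (-0.54, adjusted p = 0.00017). Leaving out an array ended some of these calls: ADA in siMESH1 without siNT replicate 3 or siMESH1 replicate 1 (down to 0.47), DGUOK without siNT replicate 2 or siMESH1 replicate 2 (-0.47) and GMPS without siNT replicate 2 or siATF4 replicate 1 (-0.44).

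Of 9 genes of dNTP breakdown and pool cleaning, NUDT1, which removes oxidised purine nucleotides, fell in all 3 groups, with changes of -0.63, -0.91 and -0.80 (SE 0.08, adjusted p = 6.4e-05, 3.5e-06 and 7.1e-06). SAMHD1, the dNTP triphosphohydrolase, was at 0.01, 0.11 and -0.11 in siNT and at -0.73, -0.57 and -0.53 in siMESH1. It was at -0.17, -0.22 and -0.04 in siATF4 and at -0.17, -0.08 and -0.24 in siMESH1+siATF4. The siMESH1 arrays lay below all others, and its change was -0.61 there (SE 0.08, adjusted p = 4.3e-05) and -0.14 and -0.16 in the groups that received siATF4, neither called. Its interaction of 0.59 was called. Of the 56 other nucleotide genes, 3 had an interaction called higher (SAMHD1, NUDT1 at 0.75 and HPRT1 at 0.66) and 2 one called lower. Over all genes 3.46% were called higher. With centring on the housekeeping genes, 0 of the 56 interactions were called higher and 3 lower. NT5E, an ecto-5′-nucleotidase, rose by 0.70 in siATF4 (adjusted p = 1.6e-06) and 0.90 in siMESH1+siATF4 (adjusted p = 9.9e-08), and NT5C2, a cytosolic nucleotidase, by 0.54 (adjusted p = 3e-06) and 0.74 (adjusted p = 1e-07). Of the 3 genes measured from a separate list of RRM2 turnover, FZR1 and SKP2 were not called in any comparison. CCNF, the F-box protein that marks RRM2 for degradation, fell in all 3 groups (-0.52, -0.50 and -0.64, SE 0.08, adjusted p = 0.00027, 0.00049 and 4.5e-05). The probe sets of CCNF stood at -0.72 and -0.32 in siMESH1, -0.68 and -0.32 in siATF4 and -0.80 and -0.47 in siMESH1+siATF4. Its call in siMESH1 was lost without siNT replicate 1 or siMESH1 replicate 3 (-0.43 at the smallest), and that in siATF4 without siNT replicate 1 or siATF4 replicate 2 (-0.41). When siATF4 was added to siMESH1, NT5E (0.73), NT5C2 (0.61) and TYMP, thymidine phosphorylase (0.57), rose, and SLC25A36, a mitochondrial pyrimidine nucleotide carrier, fell (-0.67). The rise of TYMP was lost without siMESH1+siATF4 replicate 3 (0.42), and its probe sets stood at 0.18 and 0.95. Centred on the housekeeping genes, NT5C2 (0.499) and TYMP (0.45) lost their calls.

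**Figure D5:**
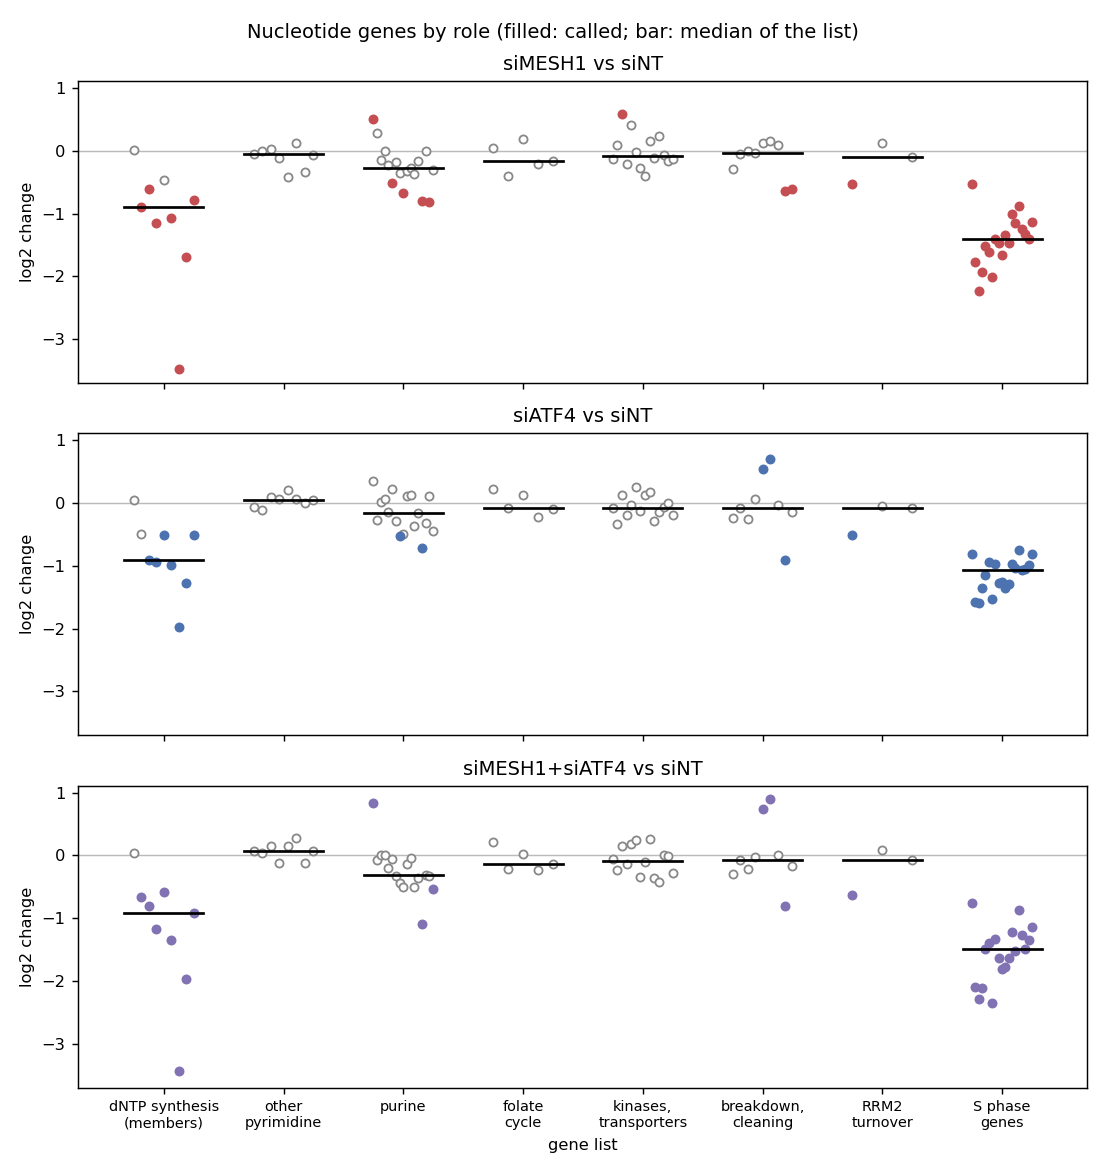
Log2 change against siNT (y axis) of the 9 supply genes, the 56 other nucleotide genes by role and the 19 S phase genes (x axis) in each silenced group; filled points are called, open points not, and black bars are medians. The medians of the supply and S phase genes lie near or below -0.9 in every group, and those of the other role groups lie between -0.31 and 0.07.

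The scaling of the arrays matters for the smaller changes. The mean of 10 housekeeping genes, 3 of which were called lower in siMESH1, was -0.35 in siMESH1, -0.24 in siMESH1+siATF4 and -0.16 in siATF4. Centred on it, the median of all genes was 0.38, 0.25 and 0.18, and the split of all calls in siMESH1 went from 337 higher and 643 lower to 2904 higher and 279 lower. It went from 298 and 482 to 722 and 318 in siATF4, and from 526 and 628 to 1643 and 360 in siMESH1+siATF4. Between silenced groups it went from 409 and 321 to 256 and 561 in siMESH1+siATF4 vs siMESH1, from 42 and 153 to 99 and 108 in siMESH1+siATF4 vs siATF4, and from 468 and 568 to 1091 and 293 in siMESH1 vs siATF4. On that scale 5 of the 9 genes fell in siMESH1, 6 in siMESH1+siATF4 and 5 in siATF4, and TYMS and DCK lost their call in siMESH1 (-0.42 and -0.26), TYMS and DUT in siATF4 (-0.35 and -0.36), and DUT and CTPS1 in siMESH1+siATF4 (-0.34 and -0.42). RRM1, RRM2, TK1 and DTYMK fell in all 3 groups on either scale. The other nucleotide genes depended on it more: in siMESH1, 8 of the 56 were called higher on that scale, and PNP (-0.44), PRPS1 (-0.46), DGUOK (-0.16), NUDT1 (-0.28), SAMHD1 (-0.26) and CCNF (-0.17) kept their sign but lost their call. HPRT1 is itself in the housekeeping list. With the 7 housekeeping genes left without HPRT1, PGK1 and TFRC, PNP (-0.63) and PRPS1 (-0.64) stayed called in siMESH1 and HPRT1 (-0.499), DGUOK (-0.35), NUDT1 (-0.47), SAMHD1 (-0.44) and CCNF (-0.36) did not. GMPS in siATF4, PRPS2 in siMESH1+siATF4 and CCNF in siATF4 lost their calls with the 10 and with the 7 housekeeping genes. CCNF in siMESH1+siATF4 lost its call with the 10 (-0.40) and kept it with the 7 (-0.55). PNP and NUDT1 kept their fall in siATF4 and siMESH1+siATF4 with both sets.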

How the data were processed

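RNA of 12 RCC4 cultures was hybridised to Affymetrix human expression arrays. The authors deposited log2 values, made with RMA in Affymetrix Expression Console (versions not given in the sources used here) and expressed relative to the siNT mean; that mean lay within 1.20e-04 of 0 for every probe set. Values ran from -3.77 to 3.41, array medians from -0.0086 to 0.0313, 0 array pairs were identical, and the 3 arrays per group limit the precision. Of 22277 probe sets, 62 were controls; 19064 had 1 symbol (19052 matched by Entrez identifier) in GEO's platform annotation and were averaged to 11963 genes.

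All arrays entered a limma 3.58.1 fit (R 4.3.3; lmFit, eBayes; 8 residual and 4.32 prior degrees of freedom), which was checked on simulated data. Standard errors are those of the fit. Ratios within arrays were tested by exact permutation. No level filter was possible. Tables and figures used Python 3.11.15, pandas 2.3.3, numpy 2.4.6 and matplotlib 3.10.9. Alternatives were scaling, probe set summary, the replicate number as a block, groups fitted, the methods' t-test, the fold minimum and leaving out each array.

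All 9 genes are named in every comparison, with called genes of the wider role groups (up to 6 a group by adjusted p), SAMHD1, ATF4 and the nearest genes of RRM2, RRM1, TYMS and TK1. Called genes in siMESH1+siATF4 against siMESH1 and the marker genes were named after their values were seen. Genes, lists and tests were chosen with earlier results of these data known.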

Additional observations from a re-analysis of the deposited data

Results flagged for a closer look

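The effect of siMESH1 differed between cells with and without siATF4 for 6 of the 9 supply genes, by the interaction term of limma. The differences on the log2 scale were 2.0286 for RRM2, 1.0024 for TK1, 0.9205 for DTYMK, 0.7271 for CTPS1, 0.7168 for DCK and 0.7109 for RRM1. The part of the lower limit of the array, or of the unstated division of the siRNA, in these differences was not tested. The median interaction of the 9 genes was 0.72, that of the 19 S phase genes 1.06 and that of all genes -0.02.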

How the results depend on the processing

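Over 1422 values of the 9 genes under the alternatives, 1340 kept their direction and their side of the threshold, 24 lost a call, 19 gained one, 0 called values changed sign and 39 uncalled ones did. Many of these settings cannot alter a log2 change, so its direction was fixed in advance. They are arrays left out of groups not compared, the replicate block, the groups fitted, the t-tests and the fold minimum. Probe set settings also leave the values of a gene with 1 probe set as they are. Without the fold minimum, 3 supply genes were called in siMESH1+siATF4 vs siMESH1 (0 with it), 5 in siMESH1+siATF4 vs siATF4 (2) and 6 in siMESH1 vs siATF4 (1), and of the other nucleotide genes 30 in siMESH1 (9), 23 in siATF4 (6), 31 in siMESH1+siATF4 (7) and 27 in siMESH1+siATF4 vs siMESH1 (4). Housekeeping centring left 3 of 6 interaction calls. With reduced housekeeping centring 5 other nucleotide genes were called in siMESH1, 3 higher and 2 lower. Not all of them were among the 9 called without it, of which ADA, AK5, PNP and PRPS1 stayed called. Quantile normalization by construction forces arrays of unequal spread (SD 0.094 to 0.114 in siNT, 0.298 to 0.381 in silenced groups) to the same distribution. After it 0 supply genes were called in siMESH1+siATF4 vs siATF4. Of the other nucleotide genes 5 were called in siMESH1 and 2 in siMESH1+siATF4 vs siMESH1. The methods' t-test with Benjamini-Hochberg adjustment called 1 supply gene in siMESH1+siATF4 vs siATF4. Without the _x_at and _s_at probe sets of genes that have another, 7 other nucleotide genes were called in siMESH1+siATF4 vs siMESH1. RRM2 minus RRM1 was then -0.7447 in siATF4 and 0.5108 in siMESH1+siATF4 vs siMESH1, and TYMS minus DUT -0.1534 in siMESH1 and -0.1649 in siMESH1+siATF4 vs siMESH1; DUT was called in siMESH1 (-0.62). With TYMS by probe set 202589_at alone, chosen after seeing the data, TYMS minus DUT was -0.8901 in siMESH1, -0.5277 in siATF4, -1.0526 in siMESH1+siATF4 and -0.1625 in siMESH1+siATF4 vs siMESH1. Beyond what those constructions show, the cause was not tested.

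No pairing by replicate number was visible, although this cannot show how the cultures were handled. The deviations of 18 same-numbered pairs correlated between -0.191 and 0.095, and those of 36 other pairs between -0.168 and 0.243. The replicate block left the counts of supply genes at 7, 7, 8, 0, 2, 1 and 6. The ratio RRM2B minus RRM2 was not run, since RRM2B was not analysed here. With 3 arrays a group, no ratio test could pass 0.05.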
